A study of Bos taurus with 8 samples.

Results

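The mitosis and spindle genes are 35 genes whose products carry a cell from the onset of mitosis to the separation of the daughter cells. They were chosen by their function and found on the array by gene symbol, and each gene was represented by its brightest probe. A probe was found for 34 of the 35, among 15216 named genes in all, and TTK, which had no named probe in the annotation, was not analysed here. Their transcripts were compared in the granulosa cells of 4 growing and 4 plateau dominant follicles of Holstein dairy cattle. All 8 follicles were above 9 mm in diameter, came from slaughterhouse ovaries of cows whose cycle stage was unknown, and had their mural granulosa cells scraped off follicle by follicle. Growing and plateau were not set by a treatment. They were assigned from the DNA content of a portion of the same cells by flow cytometry: follicles were ranked by the summed share of cells in G1, S and G2 less the share with DNA below G1, with the growing follicles at the top and the plateau follicles in the middle of the ranking. The rank therefore counts G1 cells and dividing cells alike. RNA was amplified and read on 2-colour EmbryoGENE bovine arrays, each holding a growing follicle in one dye and a plateau follicle in the other. The 4 follicle pairs, numbered here by the position of their arrays on the slides, were each read on 2 arrays with the dyes exchanged, and the labels do not say that the follicles of a pair share an animal.

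A cell enters mitosis when cyclin B activates CDK1. Kinases of the Aurora and Polo families and kinesin motors then build the spindle, the checkpoint proteins hold the cell until every chromosome is attached, and the anaphase-promoting complex starts the separation by marking securin and the cyclins for destruction. Most of these transcripts are made late in the cell cycle, and in dividing tissues their levels follow the number of cells in G2 and mitosis. Mural granulosa cells divide while an antral follicle grows and divide less as it matures. In a bulk extract, fewer cells of a type and less RNA per cell cannot be told apart.

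Of these genes, 5 were also chosen for qRT-PCR. The basis of that choice is not given in the sources used here, so they are not taken as independent evidence of a direction. These are BUB1, a kinase of the spindle checkpoint, CCNB1, which is cyclin B1, CKS2, a small subunit that binds CDK1, PRC1, which bundles microtubules of the central spindle, and PTTG1, the securin. The primers that the study designed for them are shown because they state which transcripts were followed by a second method, each written 5′ to 3′. The qRT-PCR values themselves were not analysed here.
BUB1 forward: caggctaattgtactgctctt
BUB1 reverse: tgtcctcataaatgcttgtatcc
CCNB1 forward: ggaactaactatgctggactac
CCNB1 reverse: gtgctagagtgctgatcttag
CKS2 forward: ttcgatgaacactacgaatacc
CKS2 reverse: gaatacagctcatgcacagg
PRC1 forward: cacacatgcttgtctgaact
PRC1 reverse: gaccaaatccacacctgtaag
PTTG1 forward: cagaaacagacaactttctctacc
PTTG1 reverse: ccagagtagacagaatgcttgag

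Each array held 43794 probes after control spots were set aside, and 56.6 to 66.3% of them in Cy5 and 59.5 to 79.1% in Cy3 were above background. Of the granulosa markers, 9 of 9 were detected, and their mean log2 level was 10.69 to 12.87 in the growing and 9.11 to 12.69 in the plateau follicles. Plateau follicles 2 and 3 had the lowest mean levels of the granulosa markers, 9.76 and 9.11, below every other follicle. Plateau follicle 2 had INHA at 12.77, FST at 9.79 and AMH at 7.98, and plateau follicle 3 had them at 11.36, 9.33 and 8.06. Not every granulosa marker was low there. INHBA was at 15.19 in plateau follicle 2, above growing follicle 1 (14.41), and at 11.49 in plateau follicle 3. In plateau follicles 2 and 3 FSHR was at 9.75 and 8.64, FOXL2 at 7.99 and 7.70 and HSD17B1 at 7.71 and 8.03. Growing follicle 2 had these at 8.43, 7.94 and 8.01. NR5A1, at 8.58 and 8.60, lay within the range of the other follicles (8.43 to 8.88). Plateau follicle 3 also had the highest mean level of the 10 smooth muscle and fibroblast markers (11.71, against 8.72 to 9.98 in the other follicles). Of these markers, MYH11 was lowest there, at 7.26 against 7.96 to 11.96 elsewhere. PDGFRB, at 7.85, lay among the other follicles, and the rest were highest in plateau follicle 3. CYP19A1, the aromatase, had a log2 level of 8.80 in plateau follicle 3, 8.06 in plateau follicle 2 and 8.15 in growing follicle 2, and of 11.92 to 15.84 in the remaining follicles. Leukocyte markers had mean levels of 8.40 and 8.56 in plateau follicles 2 and 3 and of 7.71 to 7.96 elsewhere. The study's criterion given below was met by 2 of 11, against 1.03% of named genes. These were FCGR3A with 1.23 ± 1.09 (SD, n = 4 pairs) and LYZ with 0.61 ± 0.42. FCGR3A was above background in 4 of 8 growing and 8 of 8 plateau readings, and LYZ in 1 of 8 and 5 of 8. CSF1R and ITGAM were above background in no plateau reading. The theca markers had mean levels of 8.46 to 9.43, with the highest in growing follicle 3, and the mean levels of the endothelial, red blood cell and oocyte markers lay between 7.76 and 8.30. Single markers went beyond these means: KDR, an endothelial receptor, was at 10.48 and 11.27 in growing follicles 1 and 2, at 7.52 and 7.50 in growing follicles 3 and 4 and at 6.996 to 9.01 in the plateau follicles, and the theca marker PTCH1 was at 9.49 to 12.02. The part of other cell types in the values below was not tested.

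The mitosis and spindle genes differed more among follicles of one stage than between the stages. Their mean log2 level was 8.73, 9.06, 10.81 and 11.09 in growing follicles 1 to 4 and 9.90, 8.52, 10.38 and 10.24 in plateau follicles 1 to 4. Growing follicles 3 and 4 were thus the highest of all, growing follicles 1 and 2 and plateau follicle 2 the lowest, and the other plateau follicles lay between them. Over all named genes the mean level of the same follicles was 9.17 to 9.21. Quantile normalization gives every channel the same distribution of intensities. This likeness was therefore set in advance and is no comparison for the mitosis and spindle genes. Of the 34 genes, 26 had their highest level in growing follicle 4, and 20 had their highest 2 in growing follicles 3 and 4. In 27 of them the lowest 3 were growing follicle 1, growing follicle 2 and plateau follicle 2. The shares of all named genes with these orders were not counted. The 34 include FOXM1 and ANLN, whose probes were close to background. The Cy3 and Cy5 readings of a follicle, taken on separate arrays, gave means that differed most in plateau follicle 1, at 9.83 and 9.97, and both dyes gave the same order of the 8 follicles. Without quantile normalization the highest and the 4 lowest follicles kept their places, but plateau follicle 4 (10.73) came before growing follicle 3 (10.64) and plateau follicle 3 (10.22), so the order of these 3 was not settled.

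**Figure D1:**
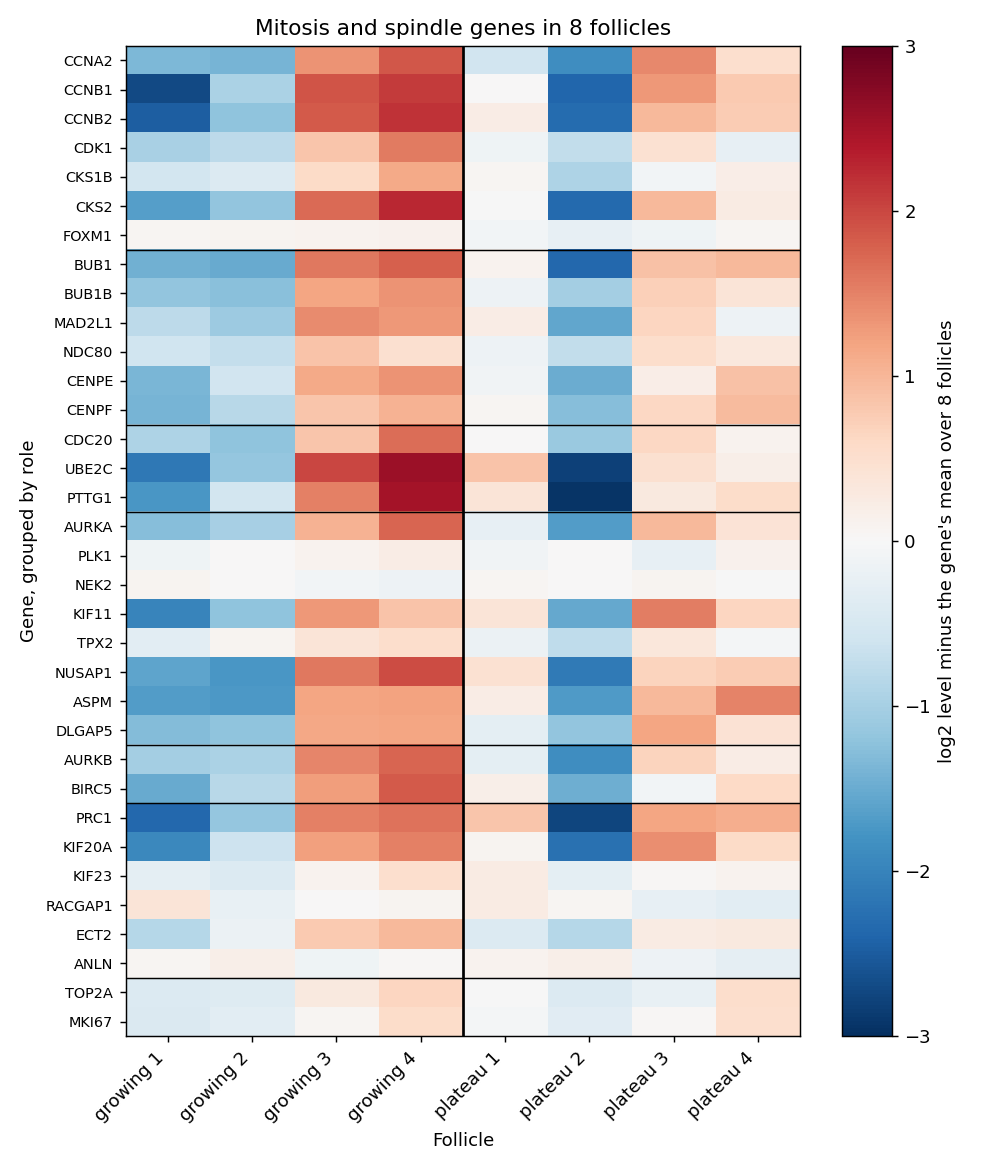
Log2 level of the 34 genes (rows, grouped by role with lines between groups) in the 8 follicles (columns, growing to the left of the heavy line), as the difference from the gene's mean over the follicles. Red columns in growing follicles 3 and 4 and blue columns in growing 1, growing 2 and plateau 2 run through most rows, while FOXM1, PLK1, NEK2, RACGAP1 and ANLN stay near white.

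The study's question here was which transcripts separate the growing from the plateau phase. No mitosis and spindle gene met its criterion, which asks for a fold change above 1.5 with a p under 0.05 before adjustment and a minimal mean log2 intensity of 7, against 1.03% of the named genes. With limma's empirical Bayes test of the 4 pair means and Benjamini-Hochberg adjustment, 0 of all 43794 probes (0%) passed an adjusted p of 0.05, and the lowest adjusted p was 0.999893. At an unadjusted p under 0.05 the test held 1152 probes (2.63%), 3.4% of the named genes and 0 of the 34. The mean log2 ratio of plateau over growing was below 0 in 26 of the 34 genes and in 48.9% of all named genes, and its median over the 34 was -0.16, beside 0.00 over all. Of the 32 genes above background in at least 1 reading of each stage, 24 had means below 0 and 8 above, also with a median of -0.16. In 33 of the 34, all but FOXM1, the SD among the pairs exceeded the size of the mean. With 4 pairs, genes without a difference often meet this, and the share of all named genes was not counted. The median SD among the pairs was 0.96 over the 34, beside 0.33 over all named genes and 0.56 over the 7579 named genes above background in all 16 readings.

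Pair 1 ran opposite to the other pairs. The median ratio of the 34 genes was 1.02 in pair 1, -0.46 in pair 2, -0.35 in pair 3 and -0.79 in pair 4. In pair 1, 31 genes were higher in the plateau follicle, and in pairs 2, 3 and 4, 25, 29 and 32 genes were lower. The full pattern, higher in pair 1 and lower in the other 3, was found in 21 of the 34 genes and in 8.63% of all named genes. Pair 1 set plateau follicle 1 against growing follicle 1, which had the lowest mean level of the growing follicles. Without pair 1, 14 genes met the criterion, all lower in the plateau follicles, against 2.68% of named genes in that direction, and their lowest adjusted p was 0.693 in limma. These were CCNB1, CCNB2, CKS1B, CKS2, BUB1, MAD2L1, CENPE, UBE2C, PTTG1, NUSAP1, AURKB, BIRC5, PRC1 and ECT2. Pair 1 was the pair that ran opposite in these same genes, so leaving it out favours such a count. The 14 also rose and fell together over the follicles and are not 14 separate results. The count is therefore no support for a difference between the stages. Leaving out pair 2, 3 or 4 gave 0 of the 34 each, against 2.75, 1.57 and 0.979% of named genes. With the 8 arrays taken as independent, which counts each pair as 2 replicates, AURKB alone met the criterion (2.52% of named genes), and on the single slides RACGAP1 (2.98%) or ECT2 (2.53%) alone did. Without pair 2 or pair 3, which hold the plateau follicles of lowest mean granulosa marker level, the median was -0.11 or -0.05. Without pair 4 it was 0.04, of the opposite sign.

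**Figure D2:**
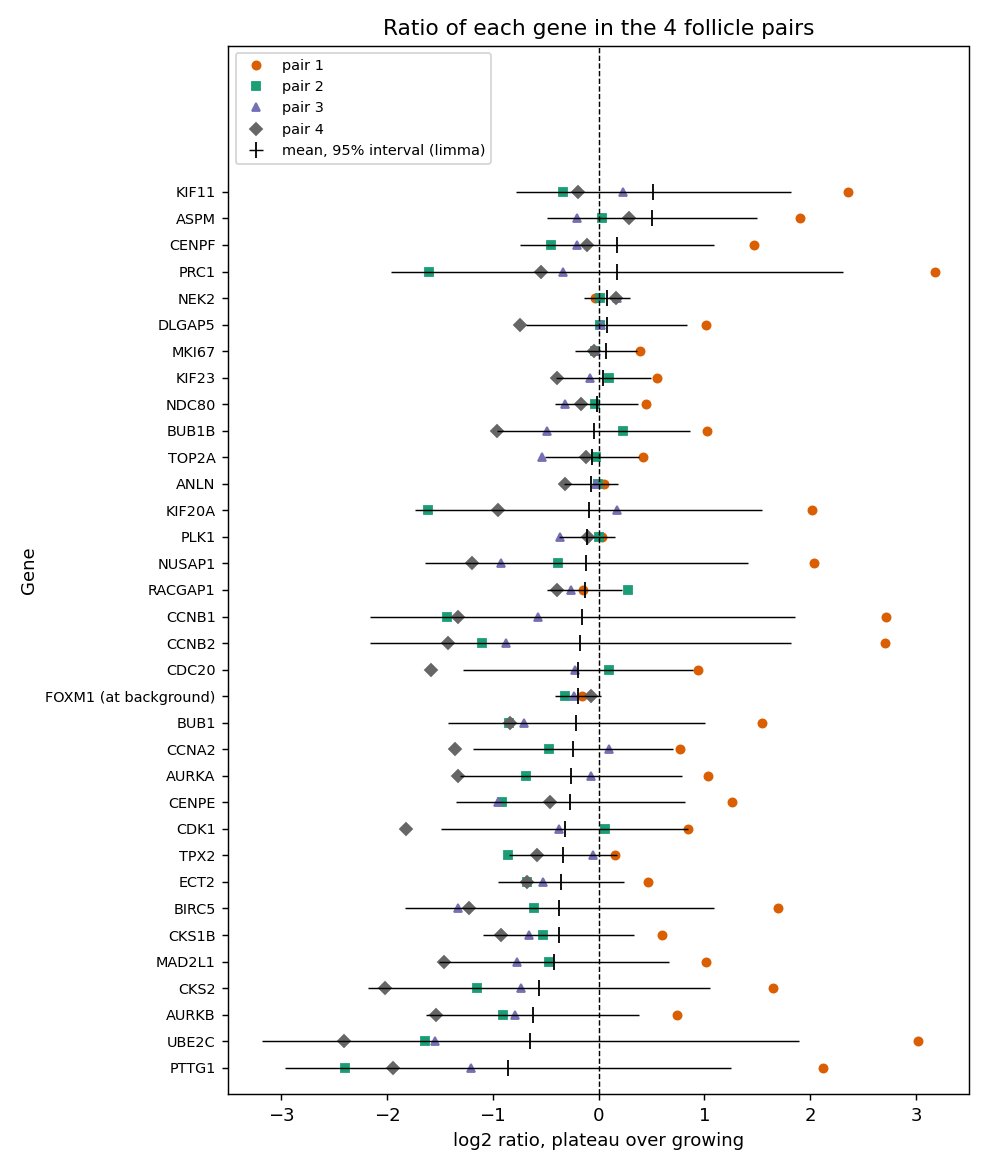
Log2 ratio of plateau over growing (horizontal axis) for each gene in the 4 follicle pairs (coloured symbols), with the mean and its 95% interval from limma (black), ordered by the mean. The pair 1 symbol lies to the right of 0 for 31 of 34 genes, and every interval spans 0.

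Among the cyclins, CDK1 and their regulators, the mean ratio was below 0 in 7 of 7 genes, with a median of -0.24. The 7 include FOXM1, whose signal was that of background. CCNB1, whose protein switches on CDK1 at the onset of mitosis, had log2 levels of 8.38, 10.15, 12.98 and 13.20 in growing follicles 1 to 4 and of 11.10, 8.72, 12.40 and 11.88 in plateau follicles 1 to 4. Its stages overlapped over nearly their whole range, with the lowest and the highest level of all 8 both in growing follicles. The ratio of CCNB1 was -0.15 ± 1.95 (SD, n = 4 pairs), with a 95% interval of -2.16 to 1.85. CCNB2, the other B-type cyclin measured, spanned 8.48 to 13.14 in the growing and 8.66 to 11.94 in the plateau follicles. CKS2 had levels of 9.42, 9.88, 12.76 and 13.34 in the growing follicles and of 11.07, 8.73, 12.03 and 11.32 in the plateau follicles. Growing follicles 3 and 4 lay above all plateau follicles for CKS2, and growing follicles 1 and 2 lay below 3 of the 4. Its ratio was -0.56 ± 1.57 (interval -2.18 to 1.05). CKS1B, its close relative, had a smaller spread, from 8.69 to 10.36 and from 8.30 to 9.43, and a ratio of -0.38 ± 0.67.

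CCNA2 and CDK1 departed from the common pattern of the pairs. CCNA2, the cyclin A of S phase and G2, had ratios of 0.77, -0.47, 0.09 and -1.36 in pairs 1 to 4, with levels from 8.53 to 11.77 in the growing and from 8.05 to 11.36 in the plateau follicles. CDK1, the kinase that the mitotic cyclins bind, had ratios of 0.85, 0.06, -0.38 and -1.82. In CDK1 growing follicle 4, at 10.45, was the highest, and the next was growing 3 at 9.73. FOXM1, a transcription factor that drives G2 and M genes, was above background in 0 of 8 growing and 0 of 8 plateau readings. Its log2 signal, 7.65 to 7.72 in the growing and 7.34 to 7.64 in the plateau follicles, was that of background, so the differences of -0.15, -0.32, -0.23 and -0.08 in pairs 1 to 4 are no measure of the transcript. By that signal it was the only member lower in all 4 pairs, as were 4.27% of named genes, and the only one without overlap of the stages, as were 1.52%.

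The kinetochore and checkpoint genes had a median ratio of -0.13 over 6 genes, 5 of them below 0. BUB1, which recruits checkpoint proteins to the kinetochore, had log2 levels of 10.46, 10.38, 13.49 and 13.71 in the growing and of 11.999, 9.54, 12.79 and 12.87 in the plateau follicles. Both stages held low and high follicles of BUB1, and its ratio was -0.21 ± 1.17 (SD, n = 4 pairs; interval -1.43 to 1.002). Without pair 1, the pair that ran opposite (1.54), the ratio of BUB1 was -0.80 ± 0.08 (SD, n = 3 pairs). BUB1B, the BubR1 protein that restrains the anaphase-promoting complex, had ratios of 1.03, 0.23, -0.49 and -0.96 in pairs 1 to 4. MAD2L1, which binds and holds CDC20, had levels from 9.98 to 12.47 in the growing and from 9.51 to 11.70 in the plateau follicles, with a ratio of -0.42 ± 1.04. CENPE, a kinesin of the kinetochore, had -0.27 ± 1.04, and NDC80, which grips the microtubule end, -0.02 ± 0.33. CENPF, a large protein of the outer kinetochore, was among the 3 highest means, at 0.18 ± 0.87. Its levels were 9.45, 10.03, 11.68 and 11.90 in the growing and 10.92, 9.58, 11.48 and 11.79 in the plateau follicles, where plateau follicle 4 came close to the highest growing follicle.

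The genes of mitotic exit spread the most among the role groups, with a median SD among pairs of 2.05. Across all members, the SD over the 8 follicles rose with the mean log2 intensity of the probe (Spearman correlation 0.82). The 3 exit genes had mean intensities of 10.78 to 11.04, and the part of brightness in their spread was not tested. UBE2C, the ubiquitin-conjugating enzyme of the anaphase-promoting complex, had log2 levels of 8.89, 9.89, 13.05 and 13.61 in the growing and of 11.91, 8.25, 11.51 and 11.21 in the plateau follicles. Growing follicles 3 and 4 were above every plateau follicle, and growing follicles 1 and 2 were below all but plateau follicle 2. The ratio of UBE2C was 3.02, -1.64, -1.55 and -2.40 in pairs 1 to 4, a mean of -0.64 ± 2.47 (SD, n = 4 pairs; interval -3.18 to 1.89). PTTG1, the securin that keeps separase inactive, had levels of 9.27, 10.47, 12.53 and 13.51 in the growing and of 11.39, 8.07, 11.32 and 11.56 in the plateau follicles. In PTTG1 plateau follicle 2 was far below the other plateau follicles, which lay close together. PTTG1 had the lowest mean ratio of the 34, -0.86 ± 2.05 (interval -2.96 to 1.25), and the widest span over the 8 follicles, 5.44. CDC20, the activator of the anaphase-promoting complex, had ratios of 0.93, 0.09, -0.22 and -1.58, and its highest level, 12.46, was in growing follicle 4.

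Of the 8 genes of spindle assembly and the centrosome, 4 had means below 0 and 4 above, with a median of -0.02. KIF11, the kinesin that pushes the spindle poles apart, had the highest mean ratio of the 34, 0.52 ± 1.25 (SD, n = 4 pairs; interval -0.78 to 1.81). Its log2 levels were 7.76, 8.53, 11.05 and 10.59 in the growing and 10.12, 8.20, 11.28 and 10.39 in the plateau follicles, so that the lowest was growing follicle 1 and the highest plateau follicle 3. Without pair 1 the ratio of KIF11 was -0.10. ASPM, which focuses the spindle poles, had a ratio of 0.51 ± 0.95 with pair values of 1.90, 0.03, -0.20 and 0.29, and levels of 8.83, 8.79, 11.69 and 11.72 in the growing and 10.73, 8.82, 11.49 and 12.01 in the plateau follicles. ASPM was the only member highest in plateau follicle 4. NUSAP1, which binds spindle microtubules near chromosomes, had levels from 9.38 to 13.09 in the growing and from 9.00 to 11.90 in the plateau follicles, with a ratio of -0.12 ± 1.48. AURKA, the kinase of centrosome maturation, had -0.26 ± 1.01, and TPX2, which activates it, -0.34 ± 0.47. DLGAP5, which stabilizes kinetochore fibres, had ratios of 1.01, 0.02, 0.02 and -0.74.

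The chromosomal passenger genes were represented by AURKB, the kinase that corrects wrong attachments, and BIRC5, survivin. AURKB had log2 levels of 10.58, 10.65, 13.08 and 13.36 in the growing and of 11.32, 9.74, 12.28 and 11.82 in the plateau follicles. Growing follicles 3 and 4 lay above every plateau follicle, and growing 1 and 2 below 3 of the 4. Its ratio was -0.62 ± 0.97 (SD, n = 4 pairs; interval -1.63 to 0.38). The ratio of BIRC5 was -0.37 ± 1.41, with levels from 8.40 to 11.74 in the growing and from 8.45 to 10.52 in the plateau follicles.

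The cytokinesis genes had a median ratio of -0.08 over 6 genes. PRC1 had log2 levels of 10.60, 11.79, 14.46 and 14.58 in the growing and of 13.77, 10.18, 14.13 and 14.03 in the plateau follicles. In PRC1 3 plateau follicles were close to the highest growing follicles and plateau follicle 2 was the lowest of all. Its ratio was 3.18, -1.60, -0.33 and -0.55 in pairs 1 to 4, a mean of 0.17 ± 2.08 (interval -1.96 to 2.31), and -0.83 ± 0.68 without pair 1 (SD, n = 3 pairs). KIF20A, a kinesin of the central spindle, had ratios of 2.02, -1.61, 0.17 and -0.95, and KIF23, the kinesin of the centralspindlin complex, had 0.55, 0.10, -0.08 and -0.39. ECT2, the exchange factor that switches on RhoA at the cleavage furrow, had a mean of -0.35 ± 0.55. Its probe was above background in 6 of 8 growing and 5 of 8 plateau readings. Of the 2 chromosome and proliferation genes, TOP2A, which untangles sister DNA, had -0.06 ± 0.39 and MKI67, the Ki-67 antigen that coats mitotic chromosomes, 0.07 ± 0.21. TOP2A was above background in only 4 of 8 growing and 5 of 8 plateau readings, so a difference could be hidden. MKI67 levels were 8.13, 8.26, 8.63 and 9.13 in the growing and 8.52, 8.22, 8.60 and 9.08 in the plateau follicles, so that the stages overlapped. Averaged over both dye orientations, partners differed by 0.05 or less in pairs 2, 3 and 4. The orientations themselves disagreed for MKI67, with a mean ratio of -0.18 with plateau in Cy5 and 0.32 on the other slide.

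Across the 8 follicles the transcripts went up and down together. The median Pearson r over the 561 pairs of members was 0.88, with 75.2% of pairs above 0.5. Over pairs of the 7579 named genes above background in all readings the median was 0.00, with 13.8% above 0.5. These correlations are descriptions over 8 follicles that share 8 arrays, a pair of follicles on each. Against the mean of the other members, r was above 0.8 for 29 of 34 genes and highest for CCNB2 (0.993), CKS2 (0.991) and BUB1 (0.988). The 5 that did not follow were FOXM1 (0.443), PLK1 (0.406), RACGAP1 (-0.306), NEK2 (-0.603) and ANLN (-0.616).

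**Figure D3:**
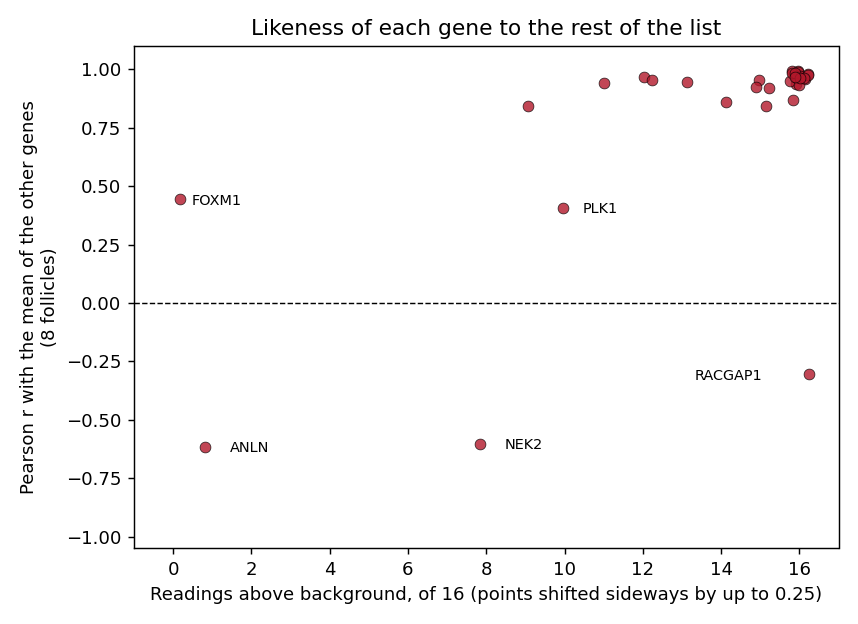
Pearson r of each gene with the mean of the other members over 8 follicles (vertical axis) against the number of its 16 readings above background (horizontal axis). Of the 5 genes below 0.5, which are named, RACGAP1 alone was above background in all readings.

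Most of these 5 genes were close to background. PLK1, the Polo-like kinase, was above it in 6 of 8 growing and 4 of 8 plateau readings, had levels from 7.96 to 8.32 and from 7.84 to 8.21, and had ratios of 0.03, 0.00, -0.37 and -0.10. NEK2, a centrosome kinase, was above background in 4 of 8 readings of either stage, and its ratios were -0.03, 0.02, 0.17 and 0.16. ANLN, anillin of the contractile ring, was above it in 0 of 8 growing and 1 of 8 plateau readings, with ratios of 0.05, -0.00, -0.03 and -0.31. A low probe can hide a difference, so these values say little of the transcripts. RACGAP1, the centralspindlin partner of KIF23, was above background in every reading, with levels of 10.90, 10.28, 10.51 and 10.57 in the growing and 10.75, 10.57, 10.25 and 10.18 in the plateau follicles. Its ratios were -0.15, 0.28, -0.26 and -0.39 (mean -0.13 ± 0.29, interval -0.48 to 0.23). The dye orientations differed for RACGAP1: the mean ratio was -0.62 on the slide with plateau in Cy5 and 0.36 on the other.

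For 12 members the array carried more than 1 probe, 16 further probes in all, and 6 of these had a mean ratio of the opposite sign to the brightest. The second probe of PTTG1 followed the first over the 8 follicles at r = 0.998, and that of MAD2L1 at 0.995. The second BIRC5 probe followed at 0.938 and a second ECT2 probe at 0.935. The further ECT2 probes had r of 0.778 and -0.766, the latter above background in 0 growing and 1 plateau reading. In the order of these r, the mean ratios of the ECT2 probes were 0.04, -0.05 and 0.03, beside -0.35 for the brightest. The other probes of AURKB did not show its spread, with SDs among pairs of 0.08 and 0.40 beside 0.97, and r of 0.476 and 0.589. The second probe of NUSAP1 had an SD of 0.14 beside 1.48, and that of KIF11, above background in no reading, 0.07 beside 1.25. Which transcript each of these probes reads was not tested.

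The other genes of the cell cycle were listed for comparison. Of 43 other mitotic genes, 40 had a probe, 32 had mean ratios below 0 and 0 met the criterion, with pair medians of 0.57, -0.21, -0.22 and -0.56. Their mean level was also highest in growing follicle 4 and lowest in plateau follicle 2, 1.53 apart, where the mitosis and spindle genes were 2.57 apart. The lists were not matched for probe brightness, with which the spread of the members rose. Of 46 genes of DNA replication and G1/S, 44 had a probe, 34 had means below 0 and 0 met the criterion. In pair 2 the replication genes had a median of 0.15, with 14 of 44 lower in the plateau follicle, where 25 of 34 mitosis and spindle genes were lower, and this difference was not tested. The 15 measured genes of cell cycle arrest and the DREAM and MuvB complexes, which hold mitotic genes silent or switch them on, had a median of 0.00, 7 below 0 and 0 at the criterion, and their mean level varied by 0.35 over the follicles.

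**Figure D4:**
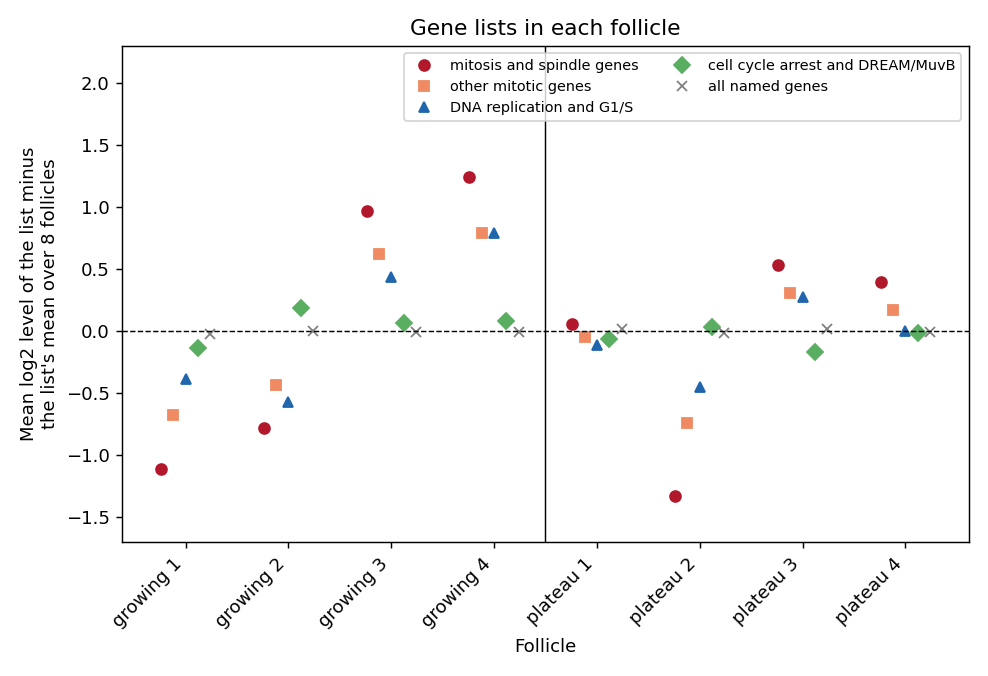
Mean log2 level of each gene list in the 8 follicles, as the difference from the list's own mean over the follicles (growing to the left of the line, plateau to the right). The mitosis and spindle genes run from -1.32 in plateau 2 to 1.25 in growing 4, the other mitotic and the replication genes cover narrower ranges, and all named genes stay within 0.02 of 0. Quantile normalization sets the level of all named genes to be nearly equal in every follicle.

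The named genes outside the list whose levels were most like the mean of the members over the 8 follicles were looked up among 7559 genes above background in all readings. ESPL1, separase, the protease that PTTG1 restrains, came first at r = 0.995, followed by MACROD1 (0.994), H2AX, the histone variant of DNA damage signalling (0.993), FAM83D, a spindle protein (0.988), and NDE1, which works with dynein (0.985). The next were NCAPH, RFC2, PBK, KPNA2, KIF15, CNOT9, UQCRQ, CENPN, KIF4A and GINS3, with r from 0.983 to 0.972. Of the first 15, 5 were in the list of other mitotic genes and 2 in that of replication. These lists had 22 and 31 genes among the 7559 ranked. ESPL1 was higher in the plateau follicle in pair 1 and lower in pairs 2, 3 and 4, with a ratio of -0.13 ± 0.82 and levels from 8.89 to 10.95 in the growing and from 8.70 to 10.34 in the plateau follicles. The levels most opposite to the mean of the members were those of ANTXR2 (-0.978), SOX4 (-0.973) and SLC4A7 (-0.964).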

How the data were processed

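RNA of 8 follicles was measured on 8 arrays of 2 slides. The authors deposited the scanner intensity of 45220 spots per array and of their local background, without normalization, and 12 to 30 spots per array were excluded by hand. The log2 ratios of Cy5 over Cy3 in the deposited series table had been background-corrected and normalized by the authors (r = 0.999656 to 0.999911 with the intensities after plain subtraction, loess and quantiles here) and served as an alternative. The genome build of the probes is not given in the sources used here.

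Intensities were corrected with normexp (offset 50) and normalized by loess within and quantiles between arrays in limma 3.58.1 (R 4.3.3). Symbols from the platform annotation were given to 21790 probes. Ratios were turned to plateau over growing. Arrays at the same position of both slides were taken as 1 pair with dyes swapped (r of their ratios 0.756 to 0.875, against -0.436 to -0.124 between positions), averaged, and the 4 pair means were tested against 0 (lmFit, eBayes) with Benjamini-Hochberg adjustment over 43794 probes. A follicle's level is the mean of its Cy3 and Cy5 log2 values; levels of different probes are not comparable. Background was the mean + 2 SD of 757 negative and dark spots. The number of follicle pairs, 4, limits the precision, since the arrays of a pair repeat the same follicles.

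The members, lists and rules were chosen with earlier results of these data known. Values in every pair or follicle are given for the qRT-PCR genes, the 3 highest and lowest means, SDs and levels, and members with another sign pattern than that of the list median; the 15 most similar genes were named by r. Alternatives were plain subtraction, no quantile normalization, the series table, a filter on dim probes, all probes of a gene, 8 independent arrays, a replicate block, unpaired follicles, each slide alone and each pair left out. The fit was tested on simulated data.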

Additional observations from a re-analysis of the deposited data

Results flagged for a closer look

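Plateau follicle 2 was set apart from the other 3 plateau follicles in 3 genes, where its gap to the nearest follicle was a large part of the whole range of the stage. Its log2 level was 8.07 for PTTG1 (gap over range 0.930), 9.00 for NUSAP1 (0.892) and 10.18 for PRC1 (0.911). These 3 were found among 68 gene and stage groups of 4 follicles, all were low, and chance flags about 1 in 20 groups. The same follicle had the lowest mean level of the mitosis and spindle genes (8.52), a low mean level of the granulosa markers (9.76, against 10.69 to 12.87 in the growing follicles), low CYP19A1 (8.06) and a mean leukocyte marker level of 8.40, and the part of these in the low values was not tested.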

How the results depend on the processing

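With 4 pairs and intensities near background for several genes, only large and even differences could pass. The count of mitosis and spindle genes at the criterion was 1 with 8 arrays as independent (AURKB), 1 on slide 197 alone (RACGAP1) and 1 on slide 198 alone (ECT2), ranged from 0 to 14 over the pairs left out in turn, and was 0 under every other alternative run. All probes at the criterion numbered 297, and 714 with 8 arrays as independent, 1049 and 851 on slides 197 and 198 alone, and 338 to 1538 over the pairs left out; treating the arrays as independent also gave 1 probe past the adjusted p of 0.05. With the pair as a replicate block and a dye term, 673 probes and 0 of the 34 genes met the criterion, and the block changed no other call. The median ratio was -0.60 to 0.04 over the pairs left out and -0.22 to -0.11 otherwise, against -0.16. The span of the mean level over the follicles was 2.53 to 3.27 under 5 alternatives chosen after seeing the data, against 2.57. The filter on dim probes left 32 of the 34 genes.

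The mean ratio of single genes changed sign on slide 197 for NDC80 (0.15), NEK2 (-0.090), NUSAP1 (0.027), PRC1 (-0.011), KIF20A (0.088), ANLN (0.057), TOP2A (0.093) and MKI67 (-0.18), and on slide 198 for CDC20 (0.047), PLK1 (0.21), DLGAP5 (-0.085), KIF23 (-0.0088) and RACGAP1 (0.36). It changed sign without quantile normalization for BUB1B (0.044) and NDC80 (0.038), and with the mean of all probes for DLGAP5 (-0.013). Over the pairs left out in turn, sign changes came with ranges of -0.58 to 0.13 for CCNA2, -1.11 to 0.27 for CCNB1, -1.13 to 0.24 for CCNB2, -0.71 to 0.18 for CDK1, -0.41 to 0.26 for BUB1B, -0.17 to 0.080 for NDC80, -0.25 to 0.39 for CENPF, -0.57 to 0.27 for CDC20, -0.69 to 0.10 for AURKA, -0.10 to 0.80 for KIF11, -0.83 to 0.24 for NUSAP1, -0.23 to 0.35 for DLGAP5, -0.83 to 0.77 for PRC1, -0.80 to 0.41 for KIF20A, -0.12 to 0.19 for KIF23, -0.12 to 0.0064 for ANLN, -0.22 to 0.092 for TOP2A and -0.036 to 0.11 for MKI67. The cause was not tested.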
